A study of Homo sapiens with 480 samples.

Results

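The genes described here are 10 human tubulin isotype genes, the alpha-tubulins TUBA1A, TUBA1B, TUBA1C and TUBA4A and the beta-tubulins TUBB, TUBB2A, TUBB2B, TUBB3, TUBB4B and TUBB6. They were chosen by name out of 20302 measured features, with earlier results of these data known. Counts of them set beside the share over all genes are therefore descriptions. The filter on low counts left 13560 genes for testing, and 10 of 10 passed it. Alpha- and beta-tubulin pair into the dimers from which microtubules, the tracks and spindle fibres of the cell, are built. The isotypes are nearly identical in their globular body and differ most in an acidic tail at the carboxyl end, where enzymes add and remove glutamate, tyrosine and other groups and where motors and other partners bind. Tubulin messenger RNA is also under feedback from free tubulin, since the TTC5 protein reads the first amino acids of a tubulin chain as it leaves the ribosome and starts the decay of its message. T cells lean on microtubules to orient the secretory machinery towards a target cell and to divide.

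Single cells of 2 human lines were sorted into 480 wells of 5 plates and sequenced as full-length cDNA. J-Lat A2 is a clone of Jurkat, a leukaemic T cell line, and carries a mostly silent construct derived from HIV, whereas the parental Jurkat line has none; each line was taken in 3 states, all after 24 h. The 6 groups are J-Lat A2 with 1 uM SAHA (vorinostat, an inhibitor of histone deacetylases and of the tubulin deacetylase HDAC6), J-Lat A2 with PMA at 1 ug/mL (a phorbol ester and activator of protein kinase C), J-Lat A2 with 0.1% DMSO (the vehicle), and Jurkat with SAHA, with PMA and with DMSO at the same amounts. The series speaks of 2 experimental batches of 2 and 3 plates, and plates P2449 and P2458 were taken as the first batch and plates P2769, P2770 and P2771 as the second from their numbers. Cells with PMA and Jurkat cells with SAHA were on the plates of the second batch only, so the 3 other groups have 5 plates and these have 3. For J-Lat A2 with SAHA 29 of 60 and 38 of 60 wells were kept on the plates of the first batch and 22, 24 and 22 of 27 on those of the second. For J-Lat A2 79 of 81 wells were kept with PMA and 94 of 96 with DMSO, and for Jurkat 36 of 36 with SAHA, 36 of 36 with PMA and 30 of 30 with DMSO. The kept wells of a group summed to between 13422385 and 57909549 counts, and the median well of a group held between 474569 and 546580.

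Levels are counts per 1000000 (CPM) of the summed kept wells of a plate, and they are given in the order of the plate numbers. Differences are log2 fold changes from 1 model across all 13560 genes (edgeR quasi-likelihood on 9 sums of a group within a batch, with a batch term). The threshold for a call was an adjusted p of 0.05. The standard error (SE) given after ± for a log2 change is approximate. It is the size of the change divided by the square root of its F statistic. No source states that the batches were separate cultures, so the p-values measure only the spread between these sums. The lines were checked against 9 T cell genes. Their summed level was 468 to 879 CPM in J-Lat A2 with SAHA, 4186 to 4418 CPM with PMA and 2271 to 2785 CPM with DMSO, and CD4 was at 0 in every group but Jurkat with SAHA. In Jurkat the sum was 564 to 702.8 CPM with SAHA, 4800.4 to 4857 CPM with PMA and 2045 to 3049.9 CPM with DMSO. Of 8 tested T cell genes 7 fell with SAHA in J-Lat A2 and 5 in Jurkat, and 3 rose with PMA in each line. Over all tested genes 4.9% and 2.37% were called lower with SAHA in J-Lat A2 and Jurkat. With PMA 1.18% and 1.17% were called higher.

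The coding sequences show which parts of these messages are shared and which are not (GENCODE release 29, GRCh38). The first 12 coding bases, in capitals below, spell the 4 amino acids that the feedback on tubulin messages reads, and they are shown for the leading beta and alpha genes because their levels moved in opposite directions in these data.
TUBB: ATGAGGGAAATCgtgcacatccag
TUBB4B: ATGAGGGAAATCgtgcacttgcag
TUBA1B: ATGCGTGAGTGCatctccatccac
TUBA1A: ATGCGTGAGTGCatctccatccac
TUBB and TUBB4B carry the same 12 bases, and so do TUBA1B and TUBA1A, which share 24 of the 24 bases printed.

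The last 60 coding bases, stop codon included, hold the acidic tail, with the glutamate codons GAA and GAG in capitals. They are shown for 4 beta genes and TUBA4A because these isotypes differ most here.
TUBB: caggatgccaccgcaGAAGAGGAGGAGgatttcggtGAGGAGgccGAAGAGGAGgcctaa
TUBB4B: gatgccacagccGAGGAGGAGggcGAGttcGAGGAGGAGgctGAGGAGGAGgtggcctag
TUBB2A: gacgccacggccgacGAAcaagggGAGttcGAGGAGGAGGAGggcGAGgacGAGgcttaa
TUBB3: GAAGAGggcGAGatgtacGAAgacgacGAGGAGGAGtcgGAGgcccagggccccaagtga
TUBA4A: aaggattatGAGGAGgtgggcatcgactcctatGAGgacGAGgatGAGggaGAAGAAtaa
TUBB has 9 glutamate codons in this stretch, TUBB4B 10, TUBB2A 8 and TUBB3 8, and the tails of TUBB and TUBB4B differ at 27 of 60 bases. TUBA4A has 7 and ends on a glutamate codon before the stop, without the final tyrosine that is cut off and put back on other alpha-tubulins in the detyrosination cycle. Not all isotypes differ in this stretch. TUBA1A and TUBA1B differ at 0 of the 60 bases, and TUBB2A and TUBB2B at 2. Over the whole coding sequence TUBA1A and TUBA1B were 97.2% identical, TUBA1B and TUBA1C 97.3%, TUBA1B and TUBA4A 86.3%, TUBB and TUBB4B 84.6%, and TUBB2A and TUBB2B 98.1%. Reads from such near copies are divided by an estimate when they are counted. Fractional values made up 93.3% of the values above 0 for TUBA1B, 95.1% for TUBA1A, 97.3% for TUBA1C, 88.5% for TUBB2A, 80.1% for TUBB3, 59.6% for TUBB4B, 41.02% for TUBB and 38.9% for TUBA4A. The split of reads among TUBA1A, TUBA1B and TUBA1C and between TUBB2A and TUBB2B is uncertain, and part of the reads of TUBB3 and TUBB4B was divided by estimate too. TUBA1A and TUBA1C also overlap each other on opposite strands, TUBB4B overlaps FAM166A, TUBA4A overlaps STK16 and TUBA4B, TUBB2B overlaps PSMG4 and TUBB6 overlaps AFG3L2. The sources used here do not say whether strand was used in the counting, so reads from opposite strands in such overlaps cannot be told apart. TUBB3 overlaps ENSG00000198211, a protein-coding gene on the same strand, which had 1 count in all kept wells together.

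In J-Lat A2 cells, SAHA changed which tubulins made up the message pool. The beta-tubulins TUBB4B, TUBB2A and TUBB3 and the alpha-tubulins TUBA1A, TUBA4A and TUBA1C rose, while TUBB and TUBA1B, the most abundant beta and alpha genes with DMSO, fell. In total 6 genes were called higher and 2 lower, and TUBB2B and TUBB6 did not pass. Over all tested genes 8.43% were called, 3.53% higher and 4.9% lower. The median log2 change of the 10 genes, with TUBB2B and TUBB6 and their few counts included, was 2.46, and that of all tested genes was 0.12. The sum of the 10 genes was 15982 ± 805 CPM with SAHA and 13460 ± 1315 CPM with DMSO (SD, n = 5 plates each).

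TUBB4B (chromosome 9, 137241213 to 137243707, plus strand), a beta-tubulin that most cells make, stood at 2834, 3254, 2786, 3518 and 3363 CPM on the 5 plates of J-Lat A2 cells with SAHA. With DMSO it stood at 611, 634, 608, 558 and 623 CPM. Each plate with SAHA lay above each plate with DMSO, and the log2 change was 2.31 ± 0.14 (adjusted p = 2.12e-05). TUBB (chromosome 6, 30720201 to 30725426, plus strand), the leading beta-tubulin of many dividing cells, stood at 2900.1, 3638, 2577, 3002 and 3395 CPM with SAHA and at 3850.2, 4647, 2674, 4713 and 4656 CPM with DMSO. The ranges overlapped, and plate P2769 was the lowest both with SAHA and with DMSO. On each plate taken by itself TUBB was lower with SAHA than with DMSO. The log2 change of TUBB was -0.42 ± 0.11 (adjusted p = 0.0461).

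TUBA1A (chromosome 12, 49184796 to 49189324, minus strand), an alpha-tubulin best known from developing neurons, stood at 2214, 2247, 2566, 2624 and 2794 CPM with SAHA and at 329, 358, 486, 528 and 308 CPM with DMSO. The lowest plate with SAHA was far above the highest with DMSO, and the log2 change was 2.61 ± 0.15 (adjusted p = 2.12e-05). TUBA1B (chromosome 12, 49127782 to 49131397, minus strand), the main alpha-tubulin of dividing cells, stood at 5894, 6135, 6430.2, 6041 and 5969 CPM with SAHA and at 7277, 9029, 7721, 7565 and 7869 CPM with DMSO. All plates with SAHA were below all plates with DMSO. The log2 change of TUBA1B was -0.39 ± 0.10 (adjusted p = 0.0473).

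TUBA4A (chromosome 2, 219249711 to 219278170, minus strand), the alpha-tubulin made without a final tyrosine, stood at 138.6, 145.4, 133.7, 121.5 and 137.3 CPM with SAHA and at 13.0, 24.6, 7.41, 0 and 9.34 CPM with DMSO. The plates with SAHA were close together and all above those with DMSO. The log2 change was 3.74 ± 0.40 (adjusted p = 0.000656). TUBB2A (chromosome 6, 3153669 to 3157526, minus strand), a beta-tubulin abundant in neurons, stood at 110.1, 194.8, 157.6, 185.7 and 142.6 CPM with SAHA and at 9.35, 13.5, 29.8, 34.5 and 15.7 CPM with DMSO, without overlap (log2 change 3.04 ± 0.41, adjusted p = 0.00229). TUBA1C (chromosome 12, 49188736 to 49274603, plus strand), another alpha-tubulin of dividing cells, stood at 495, 744, 1035, 844 and 722.9 CPM with SAHA and at 405, 476, 307, 501.95 and 399 CPM with DMSO. One plate of each group, P2449 with SAHA and P2770 with DMSO, made the ranges meet. On each plate taken by itself TUBA1C was higher with SAHA than with DMSO. Its log2 change was 0.76 ± 0.19 (adjusted p = 0.0394).

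TUBB3 (chromosome 16, 89921392 to 89938761, plus strand), the beta-tubulin used as a marker of neurons, stood at 76.8, 62.7, 63.8, 66.03 and 105.8 CPM with SAHA and at 0.661, 0, 0, 0 and 0 CPM with DMSO. All J-Lat A2 cells with DMSO together held 13 counts of it, 92.3% of them in 1 well. In the second batch its level with SAHA was 521.4-fold a floor of 3 counts over the DMSO wells (0.150 CPM). That is a ratio of reads, which are not separate molecules, so it sets no lower limit on the change. The fitted log2 change over both batches was 8.04 ± 0.97 (adjusted p = 0.0012), and it depends on those few DMSO counts, as its range of 6.87 to 13.89 over the fits that leave out 1 sum or plate shows. Of 12 neuronal markers 7 could be tested and 0 were called with SAHA in J-Lat A2 by edgeR, with 2 higher at an unadjusted p under 0.05. The median log2 change of the 7 was 3.01 (all genes 0.12), and 5.30 with SAHA in Jurkat (all genes 0.11), at low counts. In J-Lat A2 9 of the 12 markers had counts with SAHA and 6 with DMSO, and STMN2, DCX and ELAVL3 were at 0 with SAHA. Their summed level was 14.3 to 61.6 CPM with SAHA and 6.50 to 23.8 CPM with DMSO.

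TUBB2B (chromosome 6, 3224261 to 3231730, minus strand), the near copy of TUBB2A, stood at 5.04, 10.9, 8.41, 10.1 and 6.74 CPM with SAHA and at 0.508, 0.488, 1.06, 2.80 and 2.00 CPM with DMSO. The plate ranges were apart, but the difference did not pass the test (adjusted p = 0.252). Of its values above 0, 100% were not whole numbers, it was found only in wells that also had TUBB2A, and its counts were 5.15% of those of TUBB2A with SAHA and 6.31% with DMSO. Over the 6 groups this share was 4.42 to 6.31%. TUBB6 (chromosome 18, 12307669 to 12344320, plus strand), a beta-tubulin of muscle and of cells in culture, had counts in 13 of the 480 wells. It stayed at or below 2.14 CPM on every plate of every group and is not described further.

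The calls of TUBB, TUBA1B and TUBA1C with SAHA in J-Lat A2 did not rest on all samples alike. Leaving out each of 6 sums and 5 plates in turn, TUBB passed in 1 of 11 fits (without plate P2769), TUBA1B in 2 of 11 (without plate P2449 or plate P2769) and TUBA1C in 5 of 11, with log2 changes of -0.52 to -0.34, -0.45 to -0.34 and 0.40 to 1.09. The call of TUBA1C ended without the DMSO cells of the first batch (0.95, adjusted p = 0.0577), plate P2458 (0.68), plate P2769 (0.56) or plate P2771 (0.82), and it was lowest at 0.40 without the SAHA cells of the second batch (adjusted p = 0.353) and 0.54 without the DMSO cells of the second batch (adjusted p = 0.428). TUBB3, TUBA4A, TUBB2A, TUBA1A and TUBB4B passed in 11 of 11. A fit that gave each well equal weight (limma on the mean log2 level of the wells) called 0 of 13560 genes in every comparison and 0 of these 10. It gave TUBB4B a log2 change of 1.33, TUBA1A 1.62, TUBB -1.39, TUBA1B -1.78 and TUBA1C -0.98 with SAHA in J-Lat A2.

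**Figure D1:**
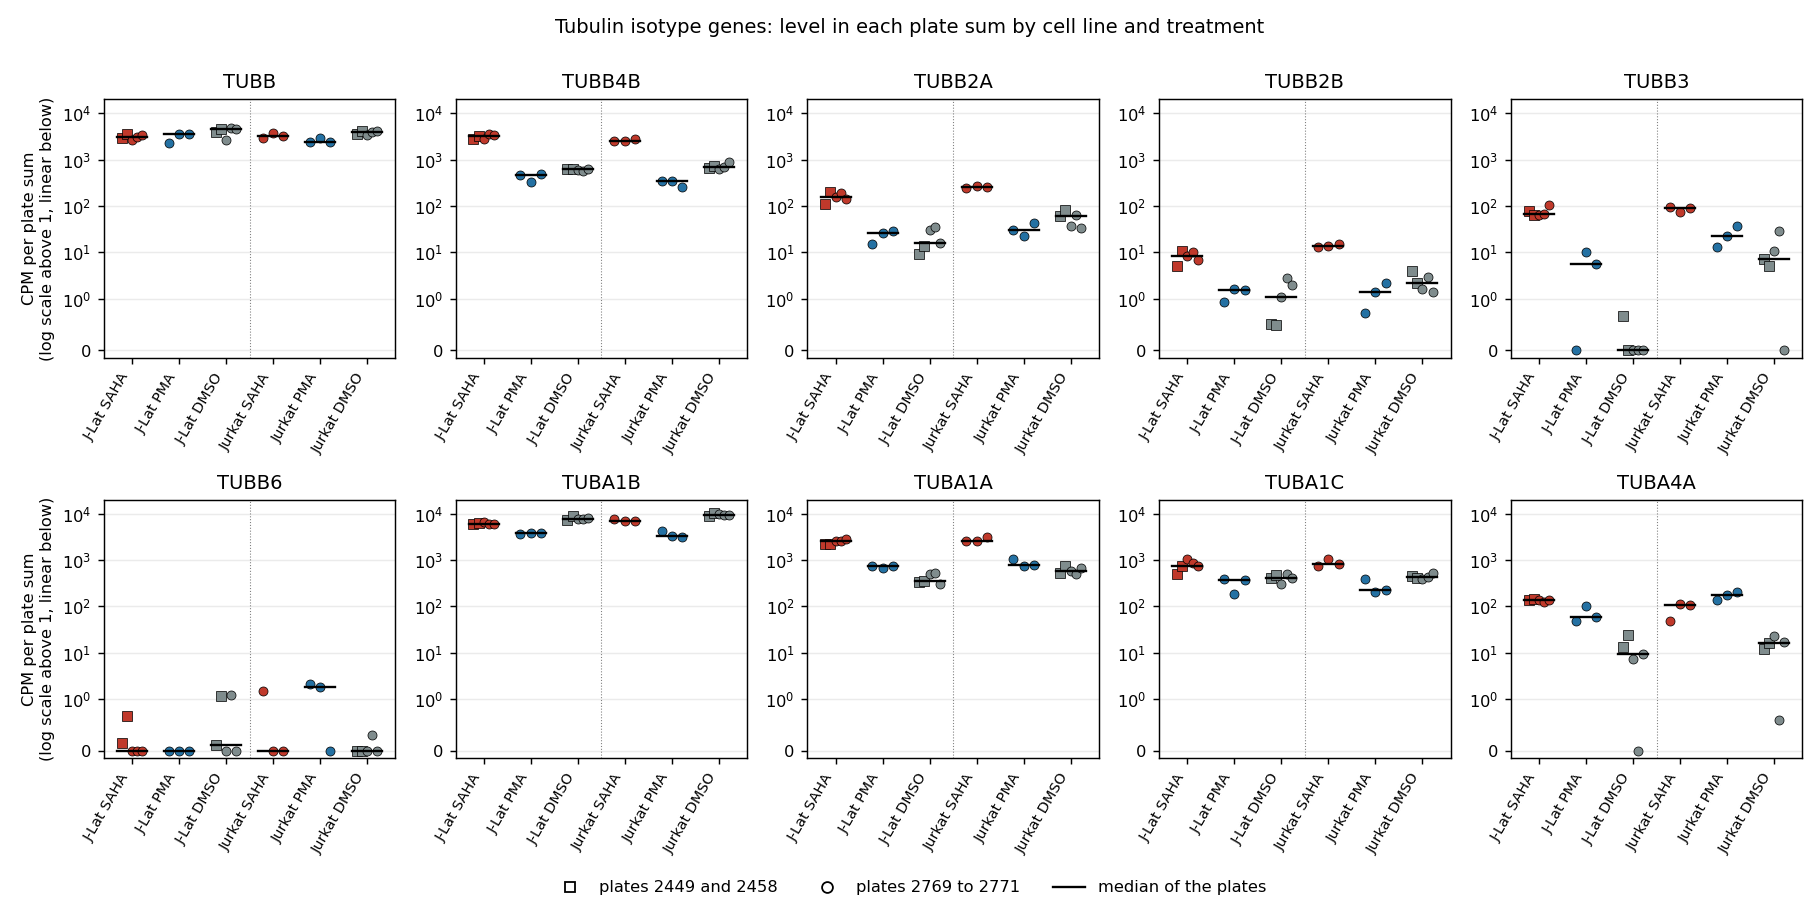
Level of each of the 10 tubulin genes by group, in counts per 1000000, on an axis that is logarithmic above 1 and linear below it, with 1 point for each plate (squares for the first batch, circles for the second) and a bar at the median of the plates. TUBB4B and TUBA1A sit higher on every plate with SAHA than on any plate with DMSO of the same line, TUBA1B sits lower on every plate with SAHA or PMA than on any with DMSO of that line, and TUBB6 is at 2.14 or below throughout.

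Jurkat cells, which lack the construct, were given SAHA to see the response of the host cell alone. TUBB4B, TUBA1A and TUBA4A rose and no tubulin gene was called lower, with 3 of 10 genes called against 4.22% of all tested genes, 1.84% being higher and 2.37% lower. The median log2 change of the 10 genes, TUBB2B and TUBB6 included, was 2.01 and that of all genes 0.11. TUBB4B stood at 2497, 2529 and 2793 CPM with SAHA and at 649, 722.8, 639, 700.97 and 888 CPM with DMSO. All plates with SAHA were above all with DMSO (log2 change 1.85 ± 0.16, adjusted p = 0.000772). TUBA1A stood at 2576, 2502 and 3136 CPM with SAHA and at 514, 734, 587, 503.3 and 660.4 CPM with DMSO. The groups were again apart (log2 change 2.12 ± 0.18, adjusted p = 0.000772). TUBA4A stood at 48.5, 111.7 and 105.5 CPM with SAHA and at 11.9, 16.4, 23.1, 0.599 and 17.4 CPM with DMSO, so that plate P2769 was the lowest with SAHA and yet above every plate with DMSO. Its log2 change was 3.02 ± 0.46 (adjusted p = 0.00733), and the call ended in the second batch alone with plates as units (log2 change 2.92, adjusted p = 0.0662).

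The other tubulins did not pass in Jurkat cells with SAHA. TUBB2A stood at 244, 274 and 253 CPM with SAHA and at 59.4, 82.9, 37.4, 63.8 and 32.7 CPM with DMSO, apart on all plates (log2 change 1.98 ± 0.50, adjusted p = 0.0613). TUBB3 stood at 96.8, 74.3 and 89.1 CPM with SAHA and at 7.005, 5.00, 10.6, 28.1 and 0 CPM with DMSO (log2 change 3.11 ± 0.85, adjusted p = 0.078). Jurkat cells thus had TUBB3 counts on 4 of 5 plates with DMSO, unlike J-Lat A2 cells. TUBA1C stood at 754, 1025 and 826 CPM with SAHA and at 454, 399, 382, 435 and 535 CPM with DMSO (log2 change 0.88 ± 0.25, adjusted p = 0.0868). TUBA1B stood at 7557, 7071 and 7075 CPM with SAHA and at 8881, 10360.0, 9835, 9518 and 9219.7 CPM with DMSO, lower on each plate (log2 change -0.38 ± 0.14, adjusted p = 0.165). TUBB stood at 2855, 3688 and 3239 CPM with SAHA and at 3499, 4105, 3369, 3987 and 4197 CPM with DMSO, with ranges that overlapped. On each plate that held both groups TUBB was lower with SAHA. TUBB2B stood at 13.1, 13.96 and 14.96 CPM with SAHA and at 3.96, 2.14, 1.62, 2.99 and 1.36 CPM with DMSO, and its counts were 5.44% and 4.78% of those of TUBB2A. By plate ranges alone 7 of the 10 genes were higher with SAHA without overlap and TUBA1B was lower, against 8.03% and 6.54% of all tested genes. In J-Lat A2 these counts were 6 and again TUBA1B, against 5.18% and 5.13%. The counts of higher genes include TUBB2B in both lines, and its reads may not be separate from those of TUBB2A.

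With PMA in J-Lat A2 cells TUBA4A rose and TUBA1B fell, 2 of 10 genes called against 1.98% of all tested genes (1.18% higher and 0.804% lower). TUBA4A stood at 48.7, 100.0 and 58.9 CPM with PMA and at 13.0, 24.6, 7.41, 0 and 9.34 CPM with DMSO, with the plates apart (log2 change 3.08 ± 0.48, adjusted p = 0.0111). TUBA1B stood at 3713, 3864 and 3837 CPM with PMA and at 7277, 9029, 7721, 7565 and 7869 CPM with DMSO, about the same on its 3 plates with PMA and far below every plate with DMSO (log2 change -1.05 ± 0.14, adjusted p = 0.00489). Both calls ended without the DMSO cells of the second batch (TUBA4A 2.21, adjusted p = 0.0793; TUBA1B -1.09, adjusted p = 0.0625), and that of TUBA4A also without plate P2770 (2.25, adjusted p = 0.0547). TUBA1A stood at 741, 672 and 748 CPM with PMA, above each of the 5 plates with DMSO, but did not pass (log2 change 0.76 ± 0.18, adjusted p = 0.075). TUBB4B stood at 453, 324 and 491 CPM with PMA, below each plate with DMSO, and did not pass either (log2 change -0.60 ± 0.17, adjusted p = 0.14). By plate ranges 2 genes were higher and 2 lower without overlap, against 6.4% and 6.11% of all genes.

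None of the remaining tubulins passed in J-Lat A2 with PMA. TUBB stood at 2329, 3512 and 3552 CPM (adjusted p = 0.348), TUBA1C at 385, 184.5 and 365 CPM (adjusted p = 0.443) and TUBB2A at 14.9, 25.7 and 28.6 CPM (adjusted p = 0.992). TUBB3 stood at 0, 10.2 and 5.52 CPM with PMA, from 4 of 79 wells, and at 0 on the plates of the same batch with DMSO. With PMA its level was 36.6-fold the floor of 3 counts over those DMSO wells, a ratio of reads that sets no lower limit on the change. Those plates with DMSO had 12, 12 and 11 kept wells, too few to exclude the share of wells seen with PMA. The fitted log2 change of TUBB3, 4.30 ± 1.04, did not pass (adjusted p = 0.0762). That fit passed in 5 of 11 when 1 sum or plate was left out, for example at 9.40 without plate P2449 (adjusted p = 0.00172), the plate with the 13 DMSO counts.

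In Jurkat cells with PMA TUBA4A rose and TUBA1B and TUBB4B fell, 3 of 10 genes against 2.27% of all tested genes (1.17% higher and 1.11% lower). TUBA4A stood at 137.07, 178.5 and 204 CPM with PMA and at 11.9, 16.4, 23.1, 0.599 and 17.4 CPM with DMSO (log2 change 3.92 ± 0.46, adjusted p = 0.0031). TUBA1B stood at 4264, 3257 and 3119.8 CPM with PMA and at 8881, 10360.0, 9835, 9518 and 9219.7 CPM with DMSO (log2 change -1.47 ± 0.14, adjusted p = 0.00108). TUBB4B stood at 351, 336 and 258 CPM with PMA and at 649, 722.8, 639, 700.97 and 888 CPM with DMSO (log2 change -1.25 ± 0.18, adjusted p = 0.00663). The plates of these 3 genes did not overlap between PMA and DMSO. The call of TUBB4B ended without the Jurkat DMSO cells of the second batch (-1.21, adjusted p = 0.0525). TUBB stood at 2436, 2879.8 and 2436 CPM with PMA, below each plate with DMSO, and did not pass (log2 change -0.60 ± 0.15, adjusted p = 0.0689). By plate ranges 1 gene was higher and 3 lower without overlap, against 6.34% and 4.34% of all genes. TUBA1A stood at 1044, 732 and 760.1 CPM, TUBA1C at 394, 207 and 225 CPM, TUBB2A at 30.3, 22.1 and 43.5 CPM and TUBB3 at 13.0, 22.8 and 37.7 CPM with PMA. None of these 4 passed, with adjusted p between 0.163 for TUBA1C and 0.658 for TUBB3.

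**Figure D2:**
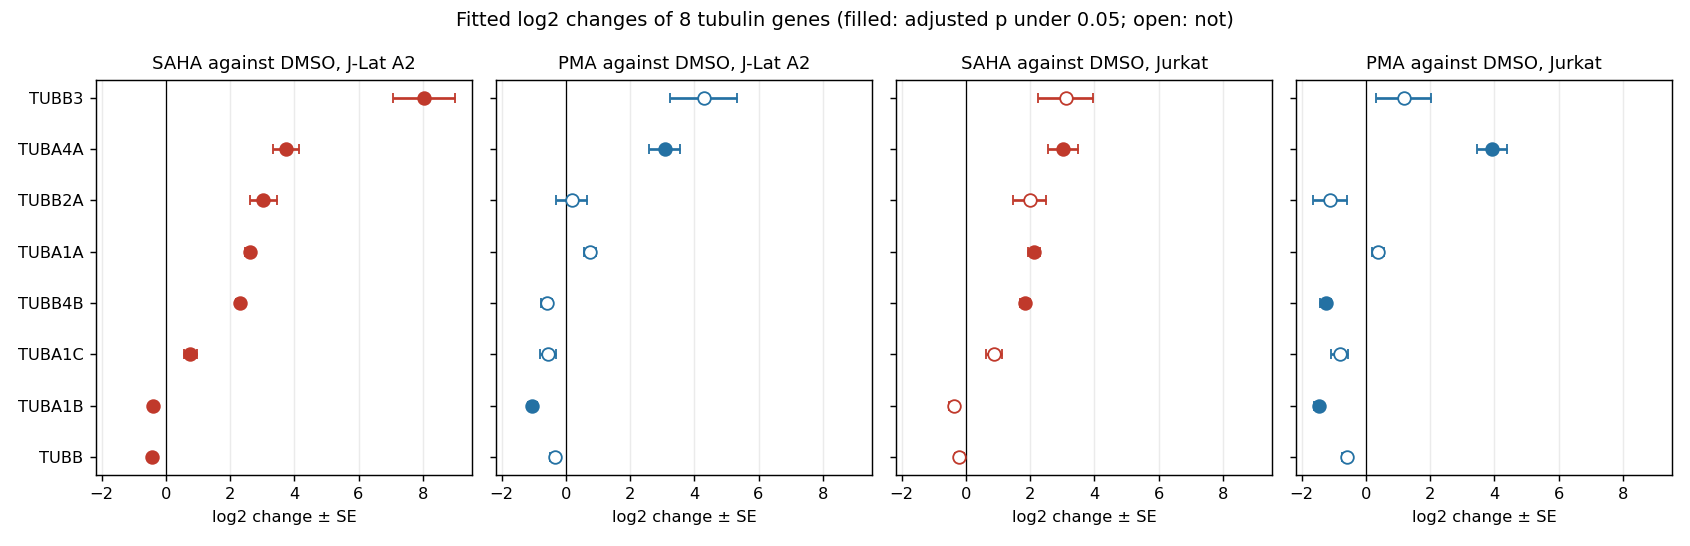
Fitted log2 change of 8 tubulin genes (all but TUBB2B and TUBB6) for SAHA over DMSO and PMA over DMSO in J-Lat A2 and Jurkat. Bars are 1 approximate standard error, from the F statistic, and points are filled where the adjusted p was under 0.05. TUBA4A is called higher in 4 of the 4 comparisons, TUBB4B lies at 2.31 and 1.85 with SAHA and at -0.60 and -1.25 with PMA, and TUBA1B lies below 0 in each.

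SAHA and PMA were compared directly in each line, since both drugs are used to reverse latency. In J-Lat A2 5 tubulins were higher with SAHA than with PMA and 0 lower, against 3.62% of all tested genes (1.37% higher and 2.25% lower). The log2 differences of SAHA over PMA were 2.91 ± 0.19 for TUBB4B (adjusted p = 3.12e-05), 2.85 ± 0.56 for TUBB2A, 1.85 ± 0.20 for TUBA1A, 1.31 ± 0.26 for TUBA1C and 0.66 ± 0.14 for TUBA1B. The same 5 genes were higher in Jurkat, against 3.86% of all genes (1.81% higher and 2.05% lower), at 3.10 ± 0.20 for TUBB4B (adjusted p = 5.05e-05), 3.09 ± 0.58 for TUBB2A, 1.74 ± 0.21 for TUBA1A, 1.70 ± 0.28 for TUBA1C and 1.08 ± 0.15 for TUBA1B. TUBA4A did not pass in either line, at 0.66 in J-Lat A2 (adjusted p = 0.621) and -0.90 in Jurkat (adjusted p = 0.487). In J-Lat A2 the call of TUBA1B passed in 6 of 11 fits that left out 1 sum or plate and ended without the SAHA cells of the second batch, either batch of DMSO cells, plate P2770 or plate P2771 (0.58 to 0.67). That of TUBA1C passed in 8 of 11 and ended without the SAHA cells of the second batch (0.83, adjusted p = 0.14), plate P2458 (1.24) or plate P2770 (0.98).

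The lines themselves were compared with DMSO. Of the 10 genes 0 were called between J-Lat A2 and Jurkat with DMSO by edgeR, against 0.398% of all genes. At an unadjusted p under 0.05, 4 of them were lower, and 1260 of 13560 genes passed that level. DESeq2 called 3 of the 10 and 425 of 13560 genes. TUBB3 was at 0 to 0.661 CPM in J-Lat A2 and at 0 to 28.1 CPM in Jurkat (log2 difference -5.18 ± 0.92, adjusted p = 0.0559), and it passed in 5 of 11 fits that left out 1 sum or plate, with values of -10.98 to -3.92. TUBB2A averaged 20.6 ± 10.9 CPM in J-Lat A2 and 55.2 ± 20.5 CPM in Jurkat (SD, n = 5 plates each), a log2 difference of -1.68 ± 0.41 (adjusted p = 0.151). TUBA1A averaged 402 ± 98.8 CPM in J-Lat A2 and 599.6 ± 98.0 CPM in Jurkat (log2 difference -0.57 ± 0.15, adjusted p = 0.17). The response to SAHA was called different between the lines for 0 of the 10 genes, against 0.00737% of all genes. TUBB3 alone was at an unadjusted p under 0.05 (log2 difference of the changes 4.94 ± 1.28). It was called by DESeq2, which called 36 of 13560 genes. With SAHA itself TUBB3 averaged 75.1 ± 18.1 CPM in J-Lat A2 (n = 5) and 86.7 ± 11.4 CPM in Jurkat (n = 3), while with DMSO it averaged 10.1 ± 10.8 CPM in Jurkat and was at 0 on 4 of 5 plates in J-Lat A2. The difference between the lines passed in 1 of 11 fits, at 11.01 without the DMSO cells of J-Lat A2 in the first batch. The response to PMA was called different for 0 genes by edgeR, against 0.0221% of all genes (0.00737% higher and 0.0147% lower), with 3 at an unadjusted p under 0.05 (TUBB3, TUBB4B and TUBA1B) and 0 called by DESeq2.

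Levels of different genes were set side by side as shares of the beta or alpha pool, after dividing each gene's counts by the length of its transcript. With SAHA the leading beta-tubulin message of J-Lat A2 was TUBB4B, at 59.6 ± 2.23% of the beta pool, ahead of TUBB at 35.9 ± 2.35% (SD, n = 5 plates). With PMA TUBB4B was 18.3 ± 5.49% and TUBB 80.5 ± 5.17% (n = 3), and with DMSO 19.8 ± 4.15% and 79.4 ± 4.39% (n = 5). Per transcript length TUBB4B was thus ahead of TUBB on 5 of 5 plates with SAHA, and TUBB ahead on every plate with PMA or DMSO. This order with SAHA depends on the division by length. As shares of the counts themselves, TUBB4B was 48.6 ± 2.41% and TUBB 47.7 ± 2.55% in J-Lat A2 with SAHA, and TUBB was ahead on 3 of the 5 plates. In Jurkat with SAHA TUBB4B was 41.97 ± 3.05% and TUBB 52.3 ± 3.31% of the counts, with TUBB ahead on 3 of 3 plates. Per length, in Jurkat TUBB4B was 52.6 ± 3.03% with SAHA, 16.1 ± 2.28% with PMA and 22.9 ± 1.54% with DMSO, and TUBB was 40.2 ± 3.20%, 80.9 ± 1.67% and 74.9 ± 0.777%. TUBB2A and TUBB3 remained minor, at 3.06% and 1.32% of the beta pool in J-Lat A2 with SAHA and 0.707% and 0.0041% with DMSO.

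In the alpha pool TUBA1B led in every group. Its share in J-Lat A2 was 69.9 ± 2.06% with SAHA, 82.04 ± 1.55% with PMA and 93.2 ± 1.15% with DMSO, and in Jurkat 71.7 ± 2.63%, 78.04 ± 0.876% and 92.6 ± 0.792%. TUBA1A took most of the rest, at 24.2 ± 1.84% with SAHA, 13.2 ± 0.713% with PMA and 4.05 ± 1.07% with DMSO in J-Lat A2 and 23.01 ± 2.54%, 15.8 ± 0.606% and 4.92 ± 0.614% in Jurkat. Both drugs thus came with a larger share of TUBA1A. With PMA, though, TUBA1B was called lower in both lines and TUBA1A was not called in either. The split of reads between these 2 genes is also an estimate. TUBA4A, the gene that ends on glutamate, was 1.17% of the alpha pool with SAHA, 1.12% with PMA and 0.0939% with DMSO in J-Lat A2, and 0.662%, 2.98% and 0.101% in Jurkat. TUBA1C was 4.74% with SAHA, 3.64% with PMA and 2.68% with DMSO in J-Lat A2. The sum of the 4 alpha genes was 9486 ± 525 CPM with SAHA, 4906 ± 95.9 CPM with PMA and 8723 ± 693 CPM with DMSO in J-Lat A2, and the sum of the 6 beta genes 6495 ± 695, 3583 ± 688 and 4738 ± 873 CPM. In Jurkat the 10 genes summed to 17154 ± 460 CPM with SAHA, 7799 ± 805 CPM with PMA and 15237 ± 863 CPM with DMSO.

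**Figure D3:**
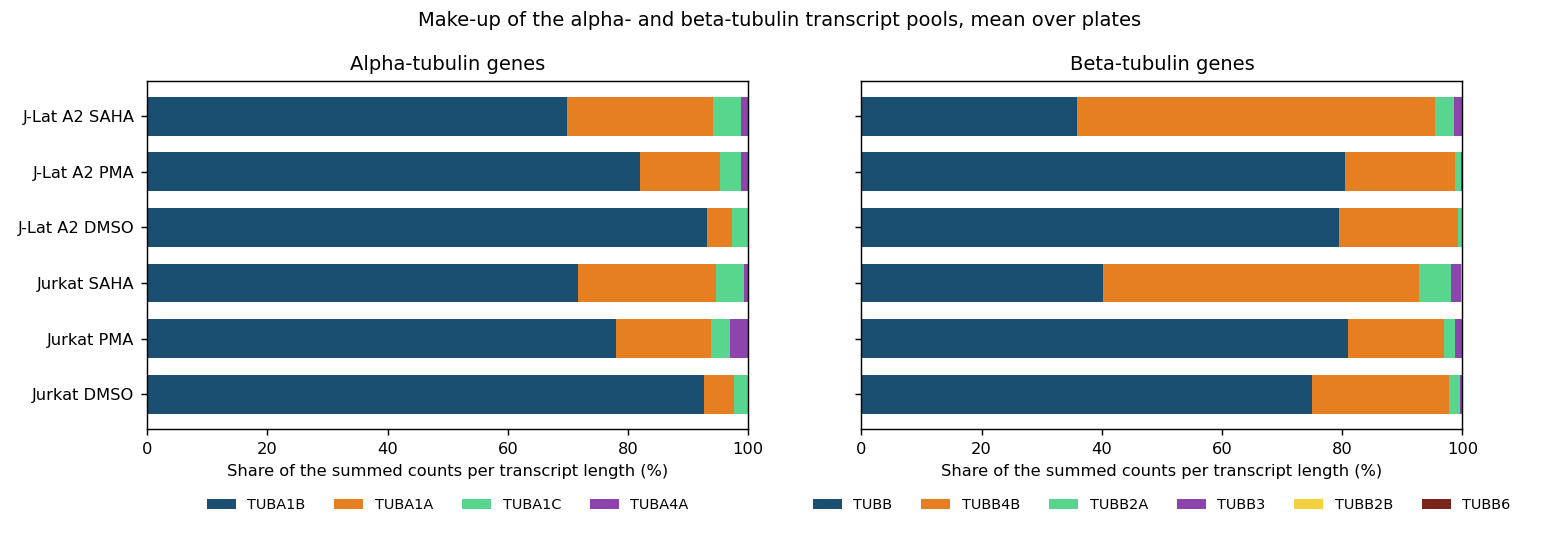
Share of each beta-tubulin gene in the beta pool and of each alpha-tubulin gene in the alpha pool, per transcript length, as stacked bars of the mean over plates in each group. TUBB4B fills 59.6% of the beta pool in J-Lat A2 with SAHA, 18.3% with PMA and 19.8% with DMSO, and TUBA1A fills 24.2%, 13.2% and 4.05% of the alpha pool.

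The share of wells with a read of the minor isotypes differed by group. TUBB3 had a read in 76 wells of J-Lat A2 with SAHA (56.3%, exact 95% interval 47.5 to 64.8%), 4 of 79 with PMA (5.06%) and 2 of 94 with DMSO (2.13%). In Jurkat it had a read in 32 of 36 wells with SAHA (88.9%), 20 of 36 with PMA (55.6%) and 6 of 30 with DMSO (20.0%). With each well thinned to 100000 counts, which left out 18, 2 and 3 wells of J-Lat A2 and none of Jurkat, the shares of TUBB3 were 60.7%, 5.19% and 0% in J-Lat A2 and 88.9%, 50.0% and 20.0% in Jurkat. The well with the most TUBB3 reads held 3.81% of them in J-Lat A2 with SAHA, 41.4% with PMA and 92.3% with DMSO, and 7.93%, 15.2% and 45.9% in Jurkat. The median level in wells with a read was 99.5 CPM with SAHA and 91.3 CPM with PMA, the value with PMA resting on 4 wells.

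TUBA4A had a read in 80 wells of J-Lat A2 with SAHA (59.3%), 28 of 79 with PMA (35.4%) and 14 of 94 with DMSO (14.9%), and in Jurkat in 28 of 36 (77.8%), 30 of 36 (83.3%) and 7 of 30 (23.3%). TUBB2A had a read in 95 (70.4%), 28 of 79 (35.4%) and 26 of 94 wells (27.7%) of J-Lat A2 and in 36 of 36, 17 of 36 (47.2%) and 20 of 30 wells (66.7%) of Jurkat. Among the major isotypes, TUBA1B had a read in 91.9% of kept wells of J-Lat A2 with SAHA, 77 of 79 with PMA and 94 of 94 with DMSO. TUBB4B had a read in 88.1% of wells with SAHA, 69 of 79 with PMA (87.3%) and 91 of 94 with DMSO (96.8%) in J-Lat A2, and in 36 of 36, 28 of 36 (77.8%) and 30 of 30 in Jurkat. Among the wells of J-Lat A2 with SAHA deep enough for thinning, TUBA1B had a read in 99.1% after thinning. Intervals of this kind treat the pooled wells of a group as independent and do not cover the spread between plates. By plate, TUBB3 had a read in 47.4 to 77.3% of wells of J-Lat A2 with SAHA, and TUBA4A in 39.5 to 81.8%. Amplified reads that carry no molecular identifier also cannot be counted as separate molecules.

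**Figure D4:**
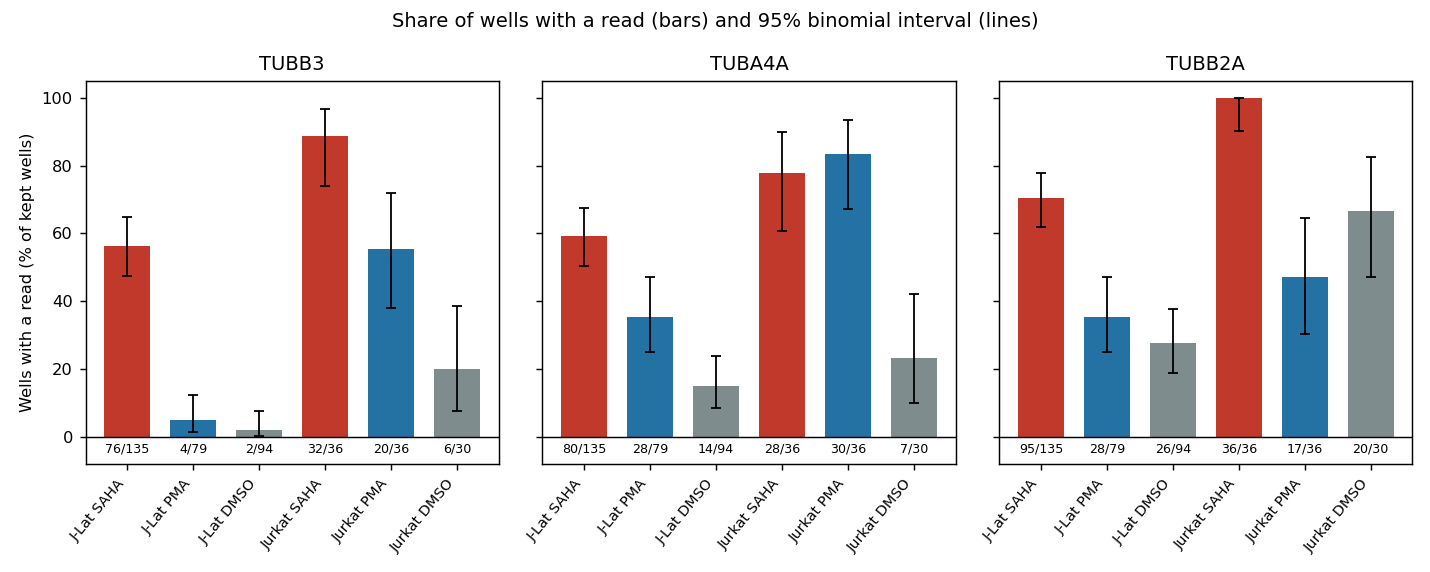
Percent of kept wells with at least 1 read of TUBB3, TUBA4A and TUBB2A, by group, as bars. Lines are exact 95% intervals over the pooled wells and leave out the spread between plates. The wells behind each bar are printed under it. TUBB3 is at 56.3% in J-Lat A2 with SAHA, 5.06% with PMA and 2.13% with DMSO, and at 88.9%, 55.6% and 20.0% in Jurkat.

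Genes of the G2 and M phases also changed in these comparisons. Their list has 30 genes and no tubulin. Over all tested genes 3.53% were called higher with SAHA in J-Lat A2 and 1.84% in Jurkat. Of the 30 genes 19 rose and 0 fell with SAHA in J-Lat A2, with a median log2 change of 1.06, and 14 rose and 0 fell in Jurkat, with a median of 1.09. Among them were ANLN, an actin-binding protein of the cleavage furrow (1.93 in J-Lat A2 and 2.34 in Jurkat), KIF20B, a kinesin of cell division (1.77 and 2.07), CDC25C, a phosphatase that opens mitosis (1.82 in J-Lat A2), and TOP2A, a topoisomerase (1.22 and 1.89). With PMA 4 fell in J-Lat A2 (median -0.36), against 0.804% of all tested genes. Examples are BUB1B, a spindle checkpoint kinase (-1.51), and PRC1, which bundles microtubules between the poles (-1.46). In Jurkat 10 fell with PMA (median -1.12), against 1.11% of all tested genes. Examples are AURKB, a mitotic kinase (-1.99), and CDC20, an activator of the anaphase complex (-1.92). The sum of the list was 11576 to 14396 CPM with SAHA, 3368 to 7119 CPM with PMA and 5977 to 8691 CPM with DMSO in J-Lat A2, and 13672 to 18856, 2811 to 4577 and 4763 to 11439 CPM in Jurkat. Whether the cell cycle has a part in the tubulin changes was not tested.

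Across the wells of 1 group, each tubulin level was set against the sum of these 30 genes in the same well. The values are descriptions, since both come from the same library and its depth. TUBA1B had a rank correlation of 0.85 over the 79 wells of J-Lat A2 with PMA, against 0.16 over the wells with SAHA and 0.54 over 94 wells with DMSO, and of 0.88 over 36 wells of Jurkat with PMA, against 0.07 over 36 wells with SAHA and -0.13 over 30 wells with DMSO. TUBB followed the same order, at 0.76 with PMA, 0.09 with SAHA and 0.35 with DMSO in J-Lat A2 and at 0.84, 0.21 and -0.11 in Jurkat. In the same order TUBB4B was at 0.75, 0.50 and 0.77 in J-Lat A2 and at 0.75, 0.39 and 0.68 in Jurkat. TUBA1C was at 0.66, 0.30 and 0.56 in J-Lat A2 and at 0.58, 0.48 and 0.60 in Jurkat. TUBA1A was at 0.22, 0.24 and 0.21 in J-Lat A2 and at 0.24, 0.14 and -0.02 in Jurkat. Such low values were not particular to TUBA1A. TUBA4A was at 0.28, -0.10 and 0.13 in J-Lat A2 and at 0.10, 0.09 and 0.01 in Jurkat. TUBB3 was at -0.12, -0.09 and 0.09 and at -0.08, -0.10 and -0.07. TUBB2A was at 0.26, -0.09 and 0.22 and at 0.42, 0.01 and -0.15. TUBA1B and the total count of the well had rank correlations of 0.22 with PMA, 0.40 with SAHA and -0.33 with DMSO in J-Lat A2 and of 0.46, -0.10 and -0.13 in Jurkat. The spread of TUBA1B between wells also differed by group. In J-Lat A2 with PMA the 10th, 50th and 90th percentiles of its wells were 249.6, 1911 and 9010.0 CPM, against 4871, 7968 and 10615 CPM with DMSO, so the upper wells with PMA reached the level of DMSO while the median well did not. In Jurkat they were 615, 2402 and 7492 CPM with PMA and 8243, 9481 and 11126 CPM with DMSO.

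**Figure D5:**
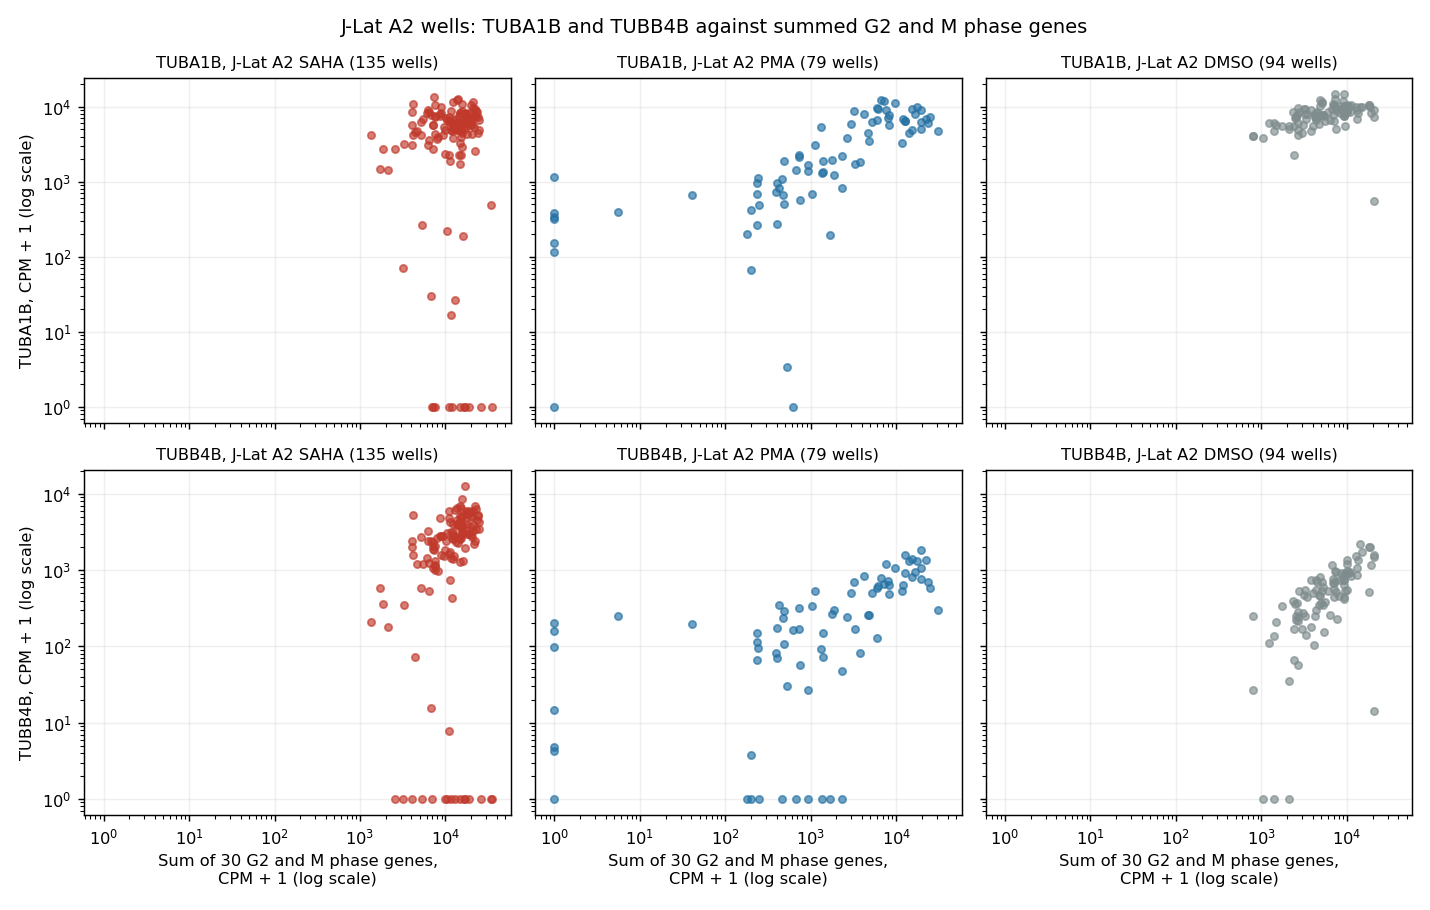
TUBA1B (upper row) and TUBB4B (lower row) against the sum of 30 G2 and M phase genes in each kept well of J-Lat A2, in counts per 1000000 plus 1 on log axes, by treatment, with 1 point a well. TUBA1B climbs with the sum among wells with PMA (rank correlation 0.85) and less so with SAHA (0.16) or DMSO (0.54), whereas TUBB4B is at 0.75, 0.50 and 0.77 with PMA, SAHA and DMSO.

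The upstream sequence of 4 members is printed because TUBB4B, TUBB3 and TUBB2A had higher values with SAHA and TUBA1B lower ones (RefSeq, GRCh38.p14, 5′ to 3′ on the strand of the gene, ending before the RefSeq start or the start of the GENCODE transcript used here, whichever lies further upstream). Capitals mark matches, on either strand, to the GC box GGGCGG, the CCAAT box CCAAT, the cell cycle element TTTGAA, the AP-1 site TGACTCA and the CRE TGACGTCA. The stretches are chr9:137241037-137241212 on the plus strand for TUBB4B, chr16:89923092-89923278 on the plus strand for TUBB3, chr6:3157545-3157794 on the minus strand for TUBB2A and chr12:49131396-49131645 on the minus strand for TUBA1B.
TUBB4B: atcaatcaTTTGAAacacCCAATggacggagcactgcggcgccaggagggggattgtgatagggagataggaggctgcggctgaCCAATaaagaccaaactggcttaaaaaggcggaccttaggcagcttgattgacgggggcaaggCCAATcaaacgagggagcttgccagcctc
TUBB3: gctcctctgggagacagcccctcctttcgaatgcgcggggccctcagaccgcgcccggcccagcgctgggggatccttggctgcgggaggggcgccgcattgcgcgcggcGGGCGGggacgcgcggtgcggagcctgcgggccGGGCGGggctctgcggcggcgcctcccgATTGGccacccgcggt
TUBB2A: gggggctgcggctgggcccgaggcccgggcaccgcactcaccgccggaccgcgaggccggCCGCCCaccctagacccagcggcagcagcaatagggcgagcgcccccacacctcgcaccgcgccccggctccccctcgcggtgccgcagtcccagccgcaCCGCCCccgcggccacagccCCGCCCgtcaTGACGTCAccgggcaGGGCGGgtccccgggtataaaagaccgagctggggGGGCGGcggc
TUBA1B: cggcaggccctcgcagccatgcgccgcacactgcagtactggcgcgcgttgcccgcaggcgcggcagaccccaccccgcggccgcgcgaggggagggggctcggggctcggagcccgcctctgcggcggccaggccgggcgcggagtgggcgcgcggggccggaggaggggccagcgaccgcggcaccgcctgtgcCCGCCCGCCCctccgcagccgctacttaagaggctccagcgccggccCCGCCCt
TUBB4B shows 3 CCAAT boxes and 1 TTTGAA and no GC box here, TUBB3 2 GC boxes and 1 CCAAT box, TUBB2A 5 GC boxes and 1 CRE, and TUBA1B 3 GC boxes, 2 of which overlap. In windows of 300 bases, from 250 before to 50 after the RefSeq start, GGGCGG was found in 8 of the 10 members and 44.95% of 35116 promoters. CCAAT was found in 7 members (34.6% of promoters), TTTGAA in 2 (TUBB4B and TUBA1C, 15.2%), TGACGTCA in 1 (1.85%) and TGACTCA in 0 (4.95%). A match is a run of letters and says nothing of binding in these cells.

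The genes whose level over the 9 sums was most like that of a tubulin were found by Pearson correlation of log2(CPM + 1) among 5909 genes with a mean of at least 20 CPM. They were IMMP1L, CMC2 and UBE4A for TUBB4B (0.98 for each), MPC1, TRAPPC1 and PIN4 for TUBA1A (0.99, 0.98 and 0.98), STARD4, KIZ and CDK5 for TUBB3 (0.98, 0.97 and 0.96) and SENP7, ATP6V1H and MOSPD1 for TUBA4A (0.98, 0.97 and 0.96). For TUBA1B they were HMGB1, PTPN2 and EIF2S3 (0.97 for each), for TUBB2A TSC22D1, PPP6C and FYTTD1 (0.98, 0.98 and 0.97) and for TUBA1C IFT25, CDKN3 and POLR2L (0.98, 0.97 and 0.97). These are the largest of 5909 correlations over only 9 sums, so high values follow from the selection. They do not mark these genes as partners of a tubulin.

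Other genes of the tubulin system were taken from fixed lists. Over all tested genes 8.43% were called with SAHA and 1.98% with PMA in J-Lat A2, and 4.22% and 2.27% in Jurkat. Calls of 1 or 2 genes in lists of this size are values of those genes and do not describe the lists. Of 11 further tubulin genes 6 could be tested and 0 were called in the 4 comparisons with DMSO by edgeR, with 1 higher at an unadjusted p under 0.05 with SAHA in J-Lat A2 and 1 lower with PMA in Jurkat. Of 13 genes of tubulin folding, TBCD, a cofactor that assembles and takes apart the dimer, fell with SAHA in both lines (-2.74 ± 0.27 in J-Lat A2, adjusted p = 0.000387, and -2.22 ± 0.36 in Jurkat, adjusted p = 0.00911), and the other 12 were not called. At an unadjusted p under 0.05, TBCD included, 4 of the 13 were lower and 1 higher with SAHA in J-Lat A2. In Jurkat with SAHA these counts were 3 and 1, and with PMA 1 was lower in J-Lat A2 and 2 in Jurkat. Over all 13560 genes 2856 and 2328 passed that level with SAHA in J-Lat A2 and Jurkat, and 1636 and 1842 with PMA. Of 12 genes of the gamma-tubulin complex, which nucleates microtubules, TUBG1 fell with PMA in Jurkat (-0.997 ± 0.21, adjusted p = 0.0425). TTC5 and SCAPER, the genes known for the feedback on tubulin messages, were not called in any of the 4 comparisons by edgeR. At an unadjusted p under 0.05, 1 of these 2 genes was lower with PMA in Jurkat. Of 18 tested tubulin-modifying enzymes SIRT2, a deacetylase of tubulin, rose with SAHA (1.21 ± 0.26 in J-Lat A2, adjusted p = 0.0192, and 1.49 ± 0.33 in Jurkat, adjusted p = 0.0333). TTLL12 fell in J-Lat A2 with SAHA (-4.15 ± 0.91, adjusted p = 0.021), at a mean of 10.4 CPM over the sums, and is named here after its value was seen.

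Of 17 tested microtubule-associated genes 4 rose with SAHA in J-Lat A2, against 3.53% of all tested genes. They were CKAP2, a spindle protein (1.72), MAP7D3 (1.496), MAP4, which stabilises microtubules (1.19), and MAPRE2, an end-binding protein (0.78). CKAP2 also rose in Jurkat (1.91). With PMA MAP1A, a microtubule-associated protein best known from neurons, fell by 2.52 on the log2 scale in each line (adjusted p = 0.00792 in J-Lat A2 and 0.00766 in Jurkat). Of 9 tested genes of the stathmins and severing enzymes KIF2C, a kinesin that takes apart microtubule ends, rose with SAHA by 1.26 ± 0.22 in J-Lat A2 and by 1.40 ± 0.28 in Jurkat. Over all tested genes 8.43% and 4.22% were called with SAHA in these lines.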

How the data were processed

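The submitters prepared full-length cDNA from single sorted cells by template switching and transposon-based libraries, per the labels' protocols. The authors' deposited values are expected counts for each gene in each well, and 12.8% of those above 0 were not whole (tolerance 1e-06). GRCh38.p13, alevin and Salmon 1.5.1 are named in the submitters' processing notes. The sources used here do not give strand, annotation or read filters. 0 columns lacked a sample. Primers carry no molecular identifier, so these are read counts.

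A well was kept with at least 500 genes and at least 1/10 of the median total of its plate (410 of 480 wells, 19756 to 984418 counts). Kept wells were summed per group and plate for levels and, rounded, per group and batch (9 sums) for tests. The sums were fitted in R 4.3.3 with edgeR 4.0.16 (TMM, filterByExpr, group and batch as terms, 2 residual and 7.75 prior degrees of freedom, two-sided quasi-likelihood F test, Benjamini-Hochberg adjustment over 13560 genes). The batch term is the pairing of the design: sums of 1 batch share plates. Groups found in 1 batch were assumed to vary like those found in both. DESeq2 1.42.0 and limma 3.58.1 were alternatives. Simulated counts for SAHA in J-Lat A2 (12604 genes) gave back 85% of genes changed by 2 on the log2 scale and 40% of those changed by 1. The changed genes had a mean of at least 20 CPM, so these shares do not cover TUBB2B or TUBB6. Comparisons with 1 treated sum were not simulated.

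Members and lists were chosen with earlier results of these data known. Named genes are the 10 members, up to 4 called genes of at least 20 CPM per list and comparison with the largest change, and the 3 genes most alike to each called member. TTLL12, below that level, was named in addition. Some coding ends and the genes most alike to 1 member are not reported here. Each well is taken as 1 cell, and no doublet caller was run. Exact intervals are Clopper-Pearson (scipy 1.17.1).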

Additional observations from a re-analysis of the deposited data

Results flagged for a closer look

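In 30 sets of 5 plates of the same group, the highest or lowest value was compared with its nearest neighbour (Dixon's ratio, critical value 0.71). With normal values chance flags about 1 in 20 such sets, and 3 stood out here. Where all plates but 1 are at 0 the ratio is 1 by construction, so that rate does not apply to sets near 0 counts. TUBB3 in J-Lat A2 cells with DMSO was at 0.661 CPM on plate P2449 (13 counts) and at 0 on the other 4 plates. TUBB6 in J-Lat A2 cells with SAHA was at 0.663 CPM on plate P2458 (5 counts), the nearest plate being at 0.140 CPM. TUBB6 in Jurkat cells with DMSO was at 0.299 CPM on plate P2770, which is 1 count. The values rest on 13 counts at most.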

How the results depend on the processing

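Of 1060 log2 changes of single members under other settings, 901 kept their direction and their side of the threshold, 77 gained a call, 75 lost one and 7 changed sign. The count of members called stood at 8 with SAHA and 2 with PMA in J-Lat A2, 3 and 3 in Jurkat, 5 and 5 between the drugs, and 0 between the lines. The DESeq2 Wald test called 5 with PMA in J-Lat A2, 6 with SAHA and 5 with PMA in Jurkat, 3 between the lines and 1 (TUBB3) for the difference in the SAHA response. Over all 13560 genes it called 742, 1275, 852, 425 and 36 in these comparisons. The main fit called 269, 572, 308, 54 and 1 of all genes, so calls rose well beyond the tubulins. Limma with equal weight per well called 0 in each and moved the median log2 change of all genes with SAHA in J-Lat A2 to -0.12. There TUBA1C was at -0.98 with SAHA in J-Lat A2, TUBA1A at -0.17 with PMA in Jurkat, and the differences in response of TUBB3 at -0.74 for SAHA and -1.59 for PMA. Without the replicate block (no batch term) 5 were called with SAHA in J-Lat A2, 5 with SAHA in Jurkat and 1 between the lines. Over all 13560 genes these counts were 996, 639 and 58. With all plate sums and plate as the replicate block, 5 were called with PMA in J-Lat A2, 7 with SAHA in Jurkat and 2 between the lines. In the second batch alone 5 were called with SAHA in Jurkat, against 960 of 11465 genes. There TUBB2A with PMA in J-Lat A2 was at -0.16. Its sign also changed without the J-Lat A2 DMSO cells of the first batch (-0.24) and without plate P2771 (-0.18), its values over 11 such fits being -0.24 to 1.26. With no filter on low counts, or with all wells, 1 was called between the lines, and the calls of TUBA1B and TUBA1C with SAHA in J-Lat A2 ended. Leaving out 1 sum or plate gave 5 to 7 calls with SAHA in J-Lat A2, 0 to 4 with PMA in J-Lat A2 (0 without the DMSO cells of the second batch), 3 to 6 with SAHA in Jurkat, 2 to 5 with PMA in Jurkat, 3 to 6 and 5 to 5 between the drugs, 0 to 1 between the lines and 0 to 1 for the difference in the SAHA response. For each of these the cause was not tested. Depth limits TUBB2B and TUBB6, which have few counts, and most groups have few sums: PMA and SAHA in Jurkat have 1 sum each.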
